A study of Danio rerio with 13 samples.

Results

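Transcript counts of 5 genes of the cardiac sarcomere were examined in adult zebrafish ventricles after cryoinjury. They are the titin genes ttn.1 and ttn.2, the myosin light chain gene myl7, the myosin heavy chain gene vmhc and the troponin T gene tnnt2a. They were taken by Ensembl identifier from a table of 32520 genes. The study compared ventricles of double mutants for the lymphatic growth factors vegfc and vegfd with ventricles of controls, to find out which pathways depend on these factors during heart regeneration. The mutant group (n = 6) had the genotype vegfc(hy-/-);vegfd(-/-), which joins a hypomorphic allele of vegfc with loss of vegfd, and the control group (n = 7) was vegfc(+/+):vegfd(+/+). All 13 hearts, controls included, had been cryoinjured, and were collected 180 days later. Each sample was RNA from 12 cryosections of 8 µm from 1 paraformaldehyde-fixed ventricle, so that it covered part of a heart. The study describes more mutants and controls at this time than are sampled here, and mutants both with and without complete regeneration. The labels do not say which mutants had regenerated. The mutants carry these alleles in all tissues, and the study describes them as lacking ventricular lymphatics.

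The sarcomere is the contractile unit of heart muscle, in which thick filaments of myosin pull on thin filaments of actin. Titin spans from the Z disc, where the thin filaments are anchored, to the middle of the sarcomere, and serves as its spring and its ruler. Myosin heavy chains carry the motor, light chains attach to it and tune it, and troponin T fixes the calcium-sensing troponin complex to tropomyosin on the thin filament. In the zebrafish heart, myl7 is used as a marker of all cardiomyocytes, vmhc as a marker of ventricular cardiomyocytes, and mutants of tnnt2a (silent heart) are known for hearts that do not beat. In bulk RNA such as this, fewer cells of a type and less RNA per cell cannot be told apart.

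Depth limits what can be seen of these genes. One gene, ENSDARG00000087732, which the reference table of names lists as rn7sl1, the 7SL RNA of the signal recognition particle, held 94.7% to 96.4% of the counts in mutants and 60.8% to 91.5% in controls. Total counts were 3575023 to 12972634 in mutants and 2123784 to 4291363 in controls, and every mutant but mutant 4 had more than any control. Outside rn7sl1, mutants had 171218 to 596616 counts and controls 256802 to 1070324. Shares below are percentages of these remaining counts, and each sample is named by group and replicate number. Another gene, RAB11FIP4, held 68.0% of the remaining counts in control 8, which lowers every other share in that sample. The other genes over 10% of the remaining counts of a sample were ITSN1 (21.2% in control 5), EIF3M (19.9% in mutant 5) and ENSDARG00000082753, ENSDARG00000080337 and ENSDARG00000115978, which have no name in the table. The tests covered the 6138 genes that averaged 10 or more counts over the samples, and 124 of these were counted in every sample. The targeted genes give no check of the genotypes, since vegfc had 32 counts, all in 1 control, and vegfd had 0 counts in all 13 samples. Of the marker lists for other cells, the summed shares overlapped between the groups for endothelium (0.0251% to 0.165% in mutants and 0.000934% to 0.112% in controls), lymphatic endothelium (0% to 0.5% in mutants and 0% to 0.0574% in controls) and epicardium with fibroblasts (0.0869% to 0.204% in mutants and 0.0248% to 0.202% in controls). The lists for smooth muscle, leukocytes, erythrocytes and skeletal muscle overlapped too, with shares of 0% to 0.209% in mutants and 0% to 0.187% in controls. The medians, mutants against controls, were 0.0514% against 0.0304% for endothelium and 0.00727% against 0.0338% for lymphatic endothelium. For epicardium with fibroblasts they were 0.142% against 0.146%, and for smooth muscle 0.0690% against 0.0471%. Leukocytes had 0.0372% against 0.0138%, erythrocytes 0.0335% against 0.00112%, and skeletal muscle 0.0610% against 0.0411%. The defining markers with the most counts of the first 3 lists were vwf, lyve1b and COL1A2, with 871, 1990 and 1431 counts over all samples, those of the other 4 were acta2, csf1ra, SLC4A1 and RYR1, with 1874, 624, 681 and 1136, and the lymphatic marker lyve1b had 1326 of its counts in mutant 3. The part of these markers in the results was not tested.

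Both titin genes stood among the genes with the most counts, and their shares were higher in most mutant ventricles than in control ventricles. With 22606 counts, ttn.1 (ENSDARG00000028213) ranked 18th of all genes, and ttn.2 (ENSDARG00000000563), with 15188 counts, ranked 26th. Both had counts in all 13 samples. These ranks order counts and not transcript levels, since a long transcript such as that of titin yields more fragments and no transcript lengths were at hand. Reads that cannot be placed between near-identical stretches of the pair fall under the mapping-quality limit and are not counted.

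The counts of ttn.2 were 3431, 2270, 1709, 405, 880 and 3060 in mutants 1 to 6, against 432, 748, 618, 311, 207, 587 and 530 in controls 1 and 3 to 8. As a share, ttn.2 had a lowest value of 0.164%, a median of 0.515% and a highest value of 0.764% in mutants, against 0.0495%, 0.104% and 0.176% in controls. Of the 6 mutants, 5 lay above every control, and the groups overlapped through mutant 5 alone, which lay just below controls 3 and 7. The 95% Wilson intervals, which cover counting error only, overlapped between these samples, with 0.154% to 0.175% in mutant 5, against 0.161% to 0.186% in control 3 and 0.163% to 0.191% in control 7. The mean share was 0.473% ± 0.231 in mutants (SD, n = 6) and 0.115% ± 0.0541 in controls (SD, n = 7), a ratio of 4.12.

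The counts of ttn.1 were 5446, 2958, 2369, 136, 1570 and 4252 in mutants 1 to 6, against 889, 2544, 1083, 144, 174, 659 and 382 in controls 1 and 3 to 8. Its share had a lowest value of 0.0794%, a median of 0.693% and a highest value of 1.21% in mutants, against 0.0285%, 0.198% and 0.589% in controls. The groups overlapped more than for ttn.2: 4 mutants lay above every control, mutant 5 lay among the higher controls, and mutant 4 lay below 4 of the controls. Control 3 was the highest control. The mean share was 0.643% ± 0.408 in mutants (SD, n = 6) and 0.202% ± 0.197 in controls (SD, n = 7), a ratio of 3.19.

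**Figure D1:**
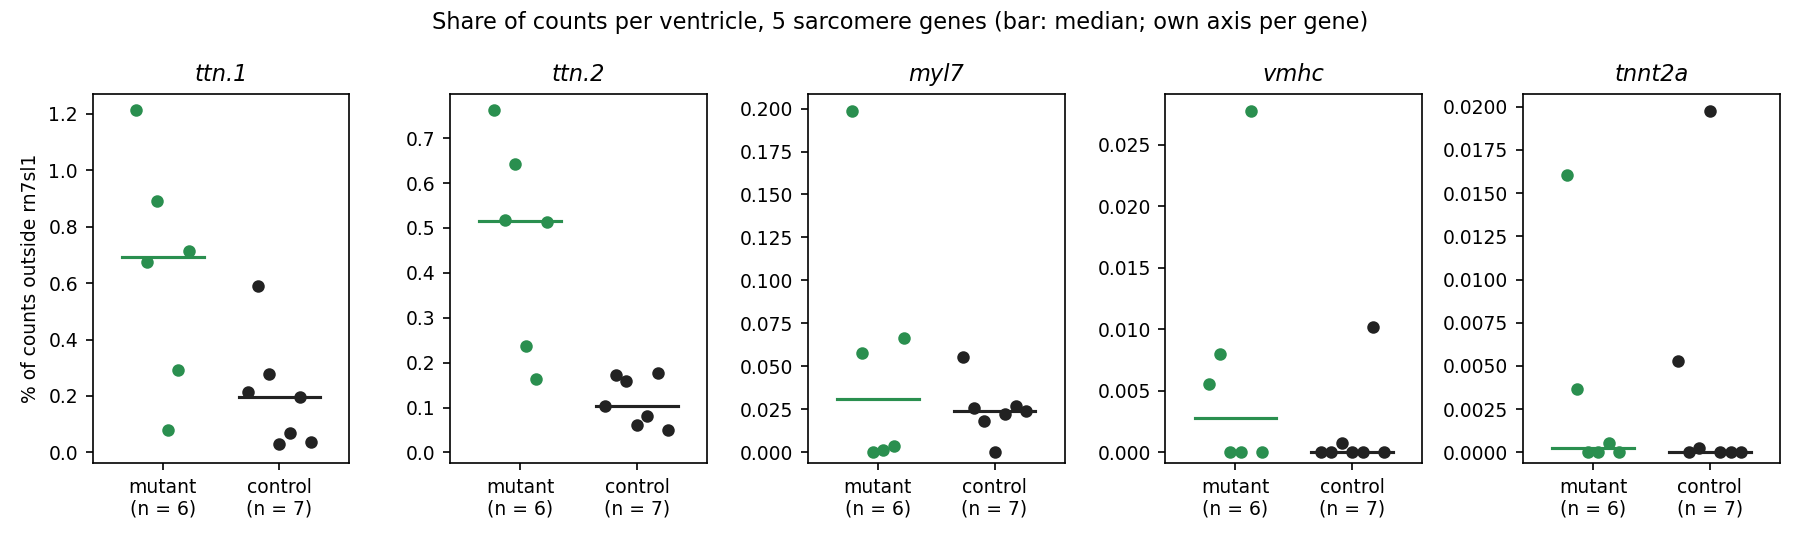
Share of the counts outside rn7sl1 (vertical axis, percent, with its own scale for each gene) for ttn.1, ttn.2, myl7, vmhc and tnnt2a; each point is 1 ventricle, mutants (n = 6) in green left of controls (n = 7) in black, and the bar is the group's median. The ttn.2 points of 5 of 6 mutants lie above all controls, while vmhc and tnnt2a lie at 0 in most ventricles of both groups.

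Neither titin gene passed the test across all genes. In edgeR's quasi-likelihood test with TMM scaling, which adjusts library sizes for a few genes that take up many counts, the log2 fold change, mutant over control, was 1.78 for ttn.2 (SE 1.24, 95% interval -0.65 to 4.21, adjusted p = 0.658) and 1.68 for ttn.1 (SE 1.17, 95% interval -0.61 to 3.96, adjusted p = 0.657). Among all 6138 genes, 6 passed an adjusted p under 0.05, which is 0.0978% (1 gene, or 0.0163%, was higher in mutants), and 0 of the 5 sarcomere genes was among them. At an unadjusted p under 0.05, edgeR called 933 genes (15.2%), also without any of the 5. The median log2 fold change of all genes was -0.30, and 44.0% of them were above 0.

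The shares were also compared by an exact two-sided permutation test over all 1716 ways to assign the group labels, on log2 of the CPM outside rn7sl1 plus 10, where CPM is the count scaled to a library of fixed size. By this measure ttn.2 was higher in mutants by 2.00 (exact permutation p = 0.00175, adjusted p = 0.932) and ttn.1 by 1.92 (exact permutation p = 0.0455, adjusted p = 0.932). Adjustment covered 6137 genes, of which 0 (0%) had an adjusted p under 0.05, and the smallest p the design allows is 0.000583. Even a gene at that p can pass the adjustment only if many other genes have very small p values too. The adjusted values therefore say little about single genes. An unadjusted permutation p under 0.05 was found for 261 of all tested genes (4.25%), with higher shares in mutants for 151 (2.46%). Among genes counted in 7 or more samples, 95 of 2322 (4.09%) were higher in mutants at this p, and among genes counted in every sample, to which both titins belong, 16 of 123 (13%) were. The samples of the mutant group count in both tests as replicates of 1 condition. Each animal gave 1 library, so the spread holds differences between animals, between sections and between libraries, which cannot be told apart.

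The size of the titin difference depended on what it was set against, because rn7sl1 took a larger share in every mutant than in any control. With all counts in the denominator, rn7sl1 included, the difference was 0.43 for ttn.2 (exact permutation p = 0.237) and 0.36 for ttn.1 (exact permutation p = 0.603). With unscaled library sizes edgeR gave 0.53 for ttn.2 and 0.27 for ttn.1, where the median of all genes was -1.51. Leaving out 1 sample at a time kept the permutation p of ttn.2 between 0.00126 and 0.00649, whereas that of ttn.1 lay between 0.0101 and 0.0934 and was above 0.05 without any one of mutants 1, 2, 3, 5 or 6 or controls 5, 6 or 8 (0.0505 to 0.0934).

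**Figure D2:**
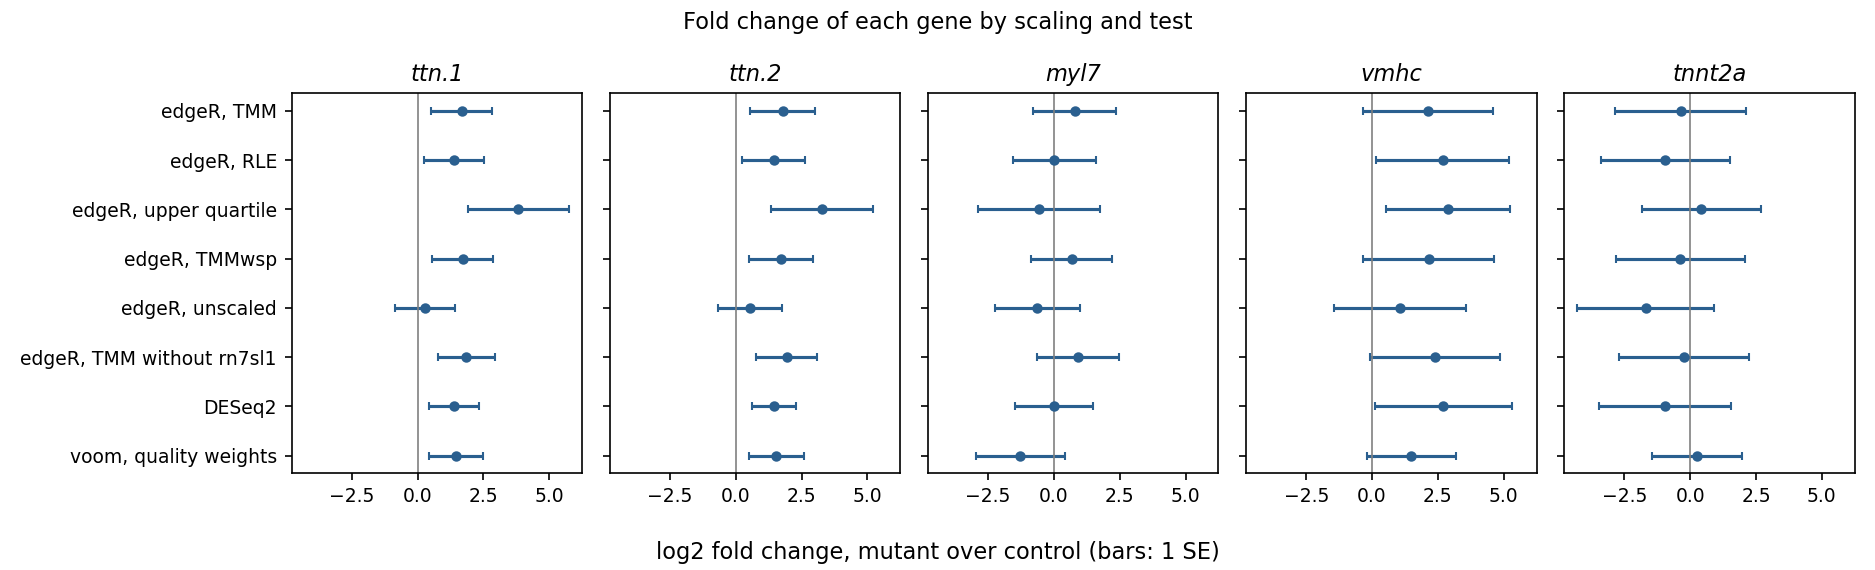
Log2 fold change, mutant over control (horizontal axis), of each of the 5 genes under 8 combinations of scaling and test (vertical axis); points are estimates and bars 1 SE. The points of both titins and of vmhc lie above 0 in every combination drawn, and those of myl7 and tnnt2a lie on both sides of 0. The bars of both titins cross 0 with unscaled library sizes, and those of vmhc cross 0 with TMM scaling, among others.

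Scaled by TMM, in CPM of the effective library, ttn.2 had a lowest value of 93.1, a median of 366 and a highest value of 545 in mutants, against 51.5, 96.7 and 149.6 in controls. On this scale ttn.1 had 31.3, 508 and 865 in mutants, against 27.3, 168 and 344 in controls. The groups overlapped on this scale for both genes, with mutants 4 and 5 of each gene inside the range of the controls. Control 8, whose share was the lowest of all for ttn.2, had the second highest scaled value among the controls (141 CPM). Its library is the one in which RAB11FIP4 took most of the remaining counts.

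The pair of titin genes moved together from sample to sample. Over the 13 samples, Pearson's r between their shares was 0.93 and Spearman's rho 0.85, which describes points that share a library and its denominator. The titin pair is also adjacent in the RefSeq annotation of the GRCz12tu assembly, with 1 gene between them and 0 protein-coding genes. The mean balance within the pair differed between the groups by less than the spread between samples, since ttn.2 made up 46.1% ± 14.3 of the titin counts in mutants (SD, n = 6) and 45.7% ± 16 in controls (SD, n = 7).

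Single samples differed widely in this balance. In mutants, the ttn.2 part of the titin counts had a lowest value of 35.9%, a median of 41.9% and a highest value of 74.9%, against 22.7%, 47.1% and 68.4% in controls. Mutant 4 was the highest, with a 95% Wilson interval of 71.0% to 78.3% from 541 titin counts, and the other 5 mutants lay between 35.9% and 43.4%. Control 3 was the lowest, at 22.7% (21.3% to 24.2%) of 3292 titin counts. The 3 controls with the lowest titin shares, 5, 6 and 8, all had more counts on ttn.2 than on ttn.1, as did mutant 4, the mutant with the lowest titin share.

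**Figure D3:**
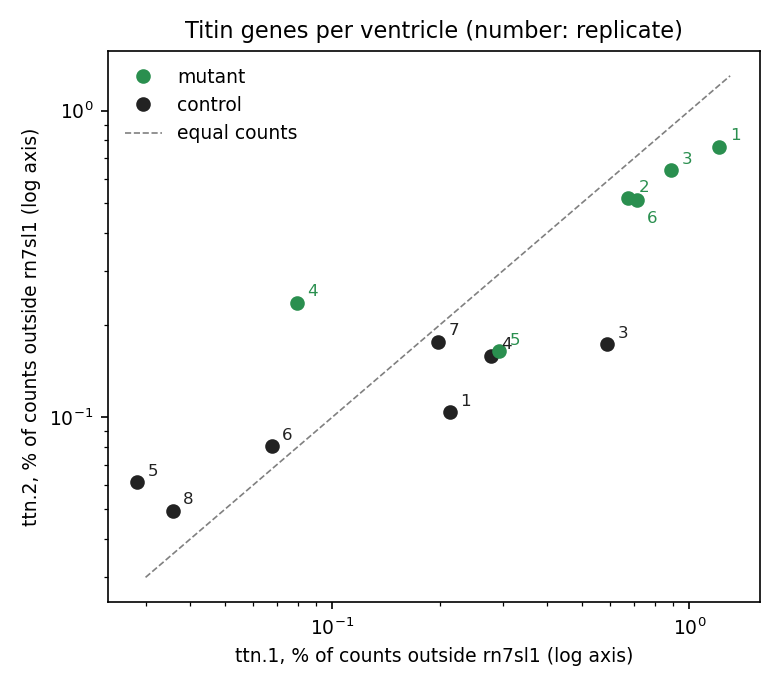
Share of ttn.1 (horizontal axis) against ttn.2 (vertical axis), both as a percentage of the counts outside rn7sl1 and on log axes; each point is 1 ventricle, numbered by replicate, with mutants in green and controls in black, and the dashed line marks equal counts. Mutants 1, 2, 3 and 6 lie at the top right, and mutant 4 and controls 5, 6 and 8 lie above the line of equal counts.

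Summed over the 5 genes, sarcomere counts made up a lowest value of 0.317%, a median of 1.28% and a highest value of 2.2% of the remaining counts in mutants, against 0.109%, 0.378% and 0.789% in controls. Titin supplied 90.0% to 100% of these counts in mutants and 77.9% to 96.7% in controls. The summed value therefore mostly describes the titins.

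The myosin light chain gene myl7 (ENSDARG00000019096), the marker of cardiomyocytes in zebrafish, had a count in 11 of 13 samples, with 2384 counts in all. It had 893, 253, 0, 2, 21 and 396 counts in mutants 1 to 6, against 232, 112, 70, 0, 58, 89 and 258 counts in controls 1 and 3 to 8. Its share had a lowest value of 0%, a median of 0.0308% and a highest value of 0.199% in mutants, against 0%, 0.0241% and 0.0557% in controls. The mutants formed a high set and a low set: mutants 1, 2 and 6 lay above every control, and mutants 3, 4 and 5 below every control other than control 5, which had 0 counts as mutant 3 did.

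The 2 samples without myl7 counts did have titin counts. Mutant 3, with 0 myl7 counts, had 4078 titin counts, and control 5, with 0, had 455. A count of 0 allows a share of up to 0.00113% in mutant 3 and 0.000593% in control 5, by a floor of 3 counts that covers counting error only. It does not show that the gene was absent from the heart. Across the samples the share of myl7 went with that of ttn.1 at a Pearson's r of 0.69 and a Spearman's rho of 0.45, and with that of ttn.2 at 0.63 and 0.35 (n = 13, shared libraries and denominator).

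No difference of myl7 was detectable between the groups, and its direction turned with the measure. The log2 fold change was 0.78 in edgeR with TMM scaling (SE 1.56, 95% interval -2.28 to 3.85, adjusted p = 1), whereas the difference of log2 shares was -0.28 (exact permutation p = 0.841). The ratio of mean shares was 2.21 and that of medians 1.28, and mutant 1 alone held 37.5% of all myl7 counts. Scaled values ran from 0 to 142 CPM in mutants (median 30.1) and from 0 to 68.8 in controls (median 15.2). The direction of the edgeR fold change also turned with upper-quartile scaling (-0.56), with unscaled library sizes (-0.63) and with voom (-1.28).

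The gene vmhc (ENSDARG00000079564), the ventricular myosin heavy chain, was close to the detection limit, with 246 counts in 5 of 13 samples. It had 25, 35, 0, 0, 149 and 0 counts in mutants 1 to 6, against 0, 0, 3, 0, 0, 34 and 0 counts in controls 1 and 3 to 8. Mutant 5 held 60.6% of all its counts, and the groups overlapped. Its share reached 0.0278% in mutants (median 0.00278%) and 0.0102% in controls (median 0%), and the scaled value reached 22.7 CPM in mutants and 8.67 in controls. Samples with 0 counts allow a share of up to 0.00175% (mutant 4) and 0.00117% (control 6), by the same floor, which covers counting error only.

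The log2 fold change of vmhc was 2.13 in edgeR (SE 2.48, 95% interval -2.74 to 6.99, adjusted p = 0.990), and the difference of log2 shares was 1.17 (exact permutation p = 0.249). Without control 7, which held 34 of the 37 control counts, the edgeR value was 5.87 (adjusted p = 0.335). A difference was not detectable at this depth.

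The name of this identifier calls for care. The reference table of names lists ENSDARG00000079564 as MYH6, and RefSeq gives vmhc as a synonym of zebrafish myh7. A second row, ENSDARG00000079782, is listed as MYH7, and this row had 6560 counts and a count in all 13 samples. Myosin heavy chain genes are close copies of each other, so reads may have been split between them or lost under the mapping-quality limit, and the low count of ENSDARG00000079564 cannot be read as a low level of ventricular myosin.

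The troponin T gene tnnt2a (ENSDARG00000020610) had 214 counts in 6 of 13 samples. It had 72, 16, 0, 0, 3 and 0 counts in mutants 1 to 6, against 22, 0, 1, 100, 0, 0 and 0 counts in controls 1 and 3 to 8. Control 5 held 46.7% of all tnnt2a counts, although it was 1 of the 2 samples without myl7 counts and had the lowest ttn.1 share. The share reached 0.0160% in mutants (median 0.000280%) and 0.0198% in controls (median 0%), and the scaled value reached 11.4 CPM in mutants and 19.0 in controls.

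The log2 fold change of tnnt2a was -0.37 in edgeR (SE 2.5, 95% interval -5.26 to 4.52, adjusted p = 1), and the difference of log2 shares was 0.11 (exact permutation p = 0.898). Its direction turned with the measure, and no difference was detectable. Only mutants 1, 2 and 5 and control 4 had counts on all 5 genes, and in mutant 3 the titins were the only ones of the 5 with a count.

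The other genes of the sarcomere were taken as 73 genes of the thick filament, the thin filament and the Z disc with titin's partners, 43 of which had enough counts to be tested and 9 of which had 0 counts in all samples. Like the 5 genes, none passed an adjusted p under 0.05 in edgeR, where 1 was higher in mutants and 3 were lower by the unadjusted p, beside 15.2% of all genes tested in either direction. In the permutation test of shares, the unadjusted p put 4 genes higher in mutants and 2 lower, and 0 passed the adjusted threshold. Of all genes tested, 2.46% were higher at this p and 4.25% passed in either direction. Among genes counted in 7 or more samples, as 30 of the 73 were, 4.09% were higher in mutants, and among genes counted in every sample 13% were. The 43 genes had a median log2 fold change of 0.08 and a median difference of log2 shares of 0.21, beside -0.30 and -0.09 over all genes tested. The difference was above 0 for 22 of the 43, or 26 of 48 with the 5 genes included, beside 46.8% of all genes tested.

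By filament, and with the 5 genes included, the median log2 fold change was 1.08 over 16 tested thick-filament genes and 0.35 over 12 thin-filament genes. It was -0.10 over 20 genes of the titin and Z-disc list. The thick-filament list holds myl7 and vmhc, the thin-filament list tnnt2a, and the titin and Z-disc list both titins. The summed share of the 73 genes had a lowest value of 0.342%, a median of 1.34% and a highest value of 1.78% in mutants, against 0.10%, 0.736% and 1.03% in controls. Mutants 4 and 5 lay inside the range of the controls, as they did for the scaled titin values. A list of 33 other cardiomyocyte genes included genes of calcium handling, energy transfer and transcription factors, and also nppa, nppb, GJA5 and HSPB7. Whether its genes, such as ckma, PGAM2 and CASQ1, are particular to cardiomyocytes was not tested. This list had a median log2 fold change of 1.67 over 16 tested genes, with 15 above 0. Over all genes tested the median was -0.30, with 44.0% above 0. In edgeR, 0 of the 16 passed an adjusted p under 0.05, beside 0.0978% of all genes tested. By the unadjusted p, 2 were higher in mutants and 0 lower, beside 15.2% of all genes tested in either direction. The summed share of this list was 0.329% to 0.909% in mutants, against 0.00981% to 0.341% in controls. Among all counts, rn7sl1 included, the list had 2914 of 11780275 in mutant 1 and 1763 of 12972634 in mutant 5. Control 7 lay above both there, with 1136 of 3898048.

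**Figure D4:**
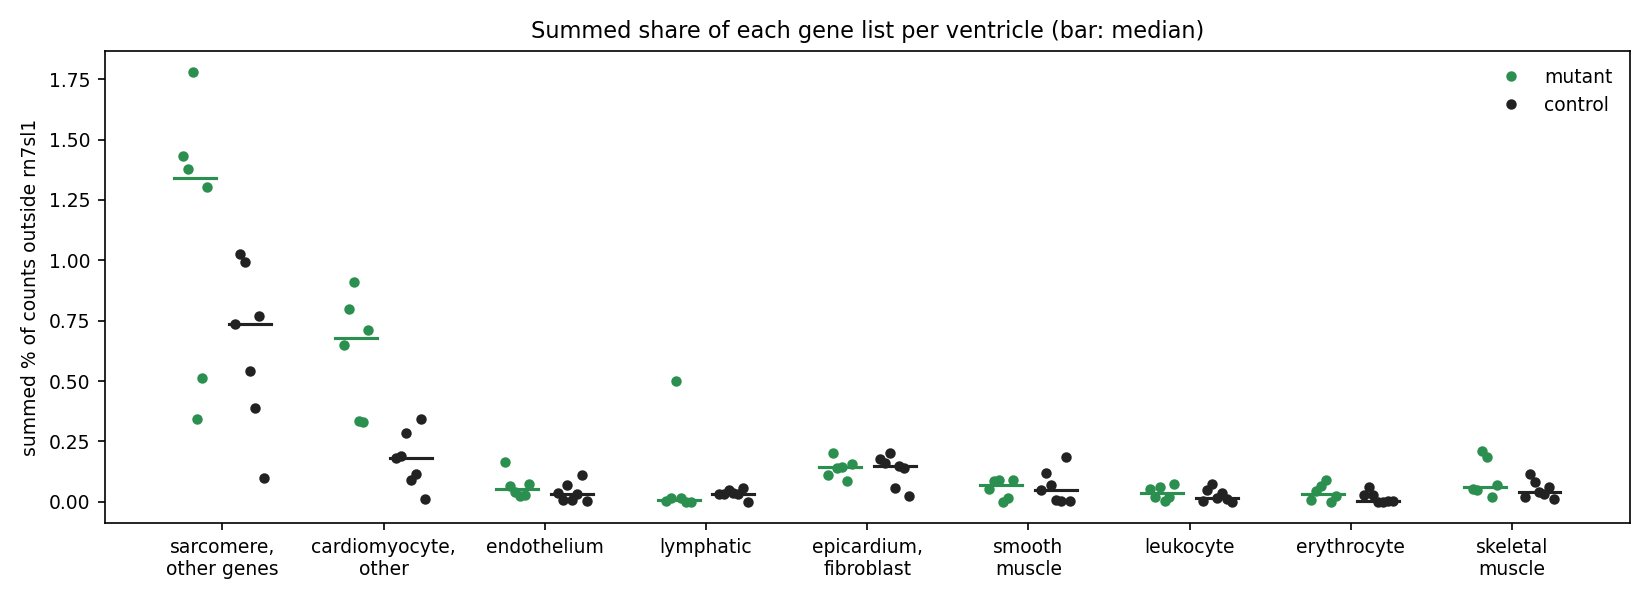
Summed share of the counts outside rn7sl1 (vertical axis, percent) of each gene list (horizontal axis); each point is 1 ventricle, mutants in green left of controls in black, and the bar is the median. The 2 lists on the left, other sarcomere genes (medians of 1.34% in mutants and 0.736% in controls) and other cardiomyocyte genes (0.679% in mutants and 0.182% in controls), lie above the lists for other cell types in their medians, and mutant 3 stands apart for the lymphatic list.

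Among the 6 of these genes with the most counts, actc1a, a cardiac actin of the thin filament, and atp2a2a, the calcium pump of the sarcoplasmic reticulum, had a higher share in every mutant than in any control. The 6 were picked by counts over all 13 samples, so a gene could enter through high counts in mutants. For actc1a, single mutants had 137 to 1003 counts and single controls 0 to 129. Higher values in mutants are therefore not independent of the choice of these genes. The share of actc1a had a lowest value of 0.0446%, a median of 0.177% and a highest value of 0.349% in mutants, against 0%, 0.0209% and 0.0331% in controls. That of atp2a2a had 0.140%, 0.238% and 0.410% in mutants, against 0%, 0.0633% and 0.126% in controls. Such a separation was found for 6 of 6137 genes (0.0978%). The titins are not among them, since ttn.2 overlapped through mutant 5 and ttn.1 through mutants 4 and 5. Only a gene counted in all 6 mutants can be separated in this way, and most of the 6137 genes were counted in few samples (2322 in 7 or more). How often genes counted as widely as actc1a and atp2a2a are separated was not tested. The separation depended on the denominator. Among all counts, actc1a had 239 of 12972634 in mutant 5 and 81 of 2123784 in control 6, so its groups overlapped. There atp2a2a overlapped too, with 776 of 12972634 in mutant 5 and 419 of 3898048 in control 7. With TMM scaling atp2a2a also overlapped: mutant 4 had 270 counts in an effective library of 4348686, and control 7 had 419 in 3923182.

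The separation did not carry either gene past the threshold, which in the permutation test no gene can pass unless many others also have very small p values. The log2 fold change of actc1a was 3.21 in edgeR (SE 1.55, adjusted p = 0.284), with an exact permutation p of 0.000583 for the shares, the smallest the design allows (adjusted p = 0.932). For atp2a2a it was 1.96 in edgeR (SE 1.38, adjusted p = 0.671), with an exact permutation p of 0.00117 (adjusted p = 0.932). The row listed as MYH7, in mammals a myosin heavy chain of heart and slow muscle, had a median share of 0.201% in mutants and 0.0626% in controls and a log2 fold change of 1.65 (edgeR, adjusted p = 0.844), and it overlapped between the groups.

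Of the other 3, tnni4a, a troponin I gene, had a median share of 0.245% in mutants and 0.0389% in controls (edgeR log2 fold change 2.02, adjusted p = 0.671). The creatine kinase gene ckma had 0.138% in mutants and 0.00334% in controls (edgeR log2 fold change 2.33, adjusted p = 0.594). The row listed as ACTA1 (ENSDARG00000055618), an alpha actin, had a median share of 0.0642% in mutants and 0.112% in controls and a log2 fold change of 0.08 (edgeR, adjusted p = 1). All 3 overlapped between the groups.

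**Figure D5:**
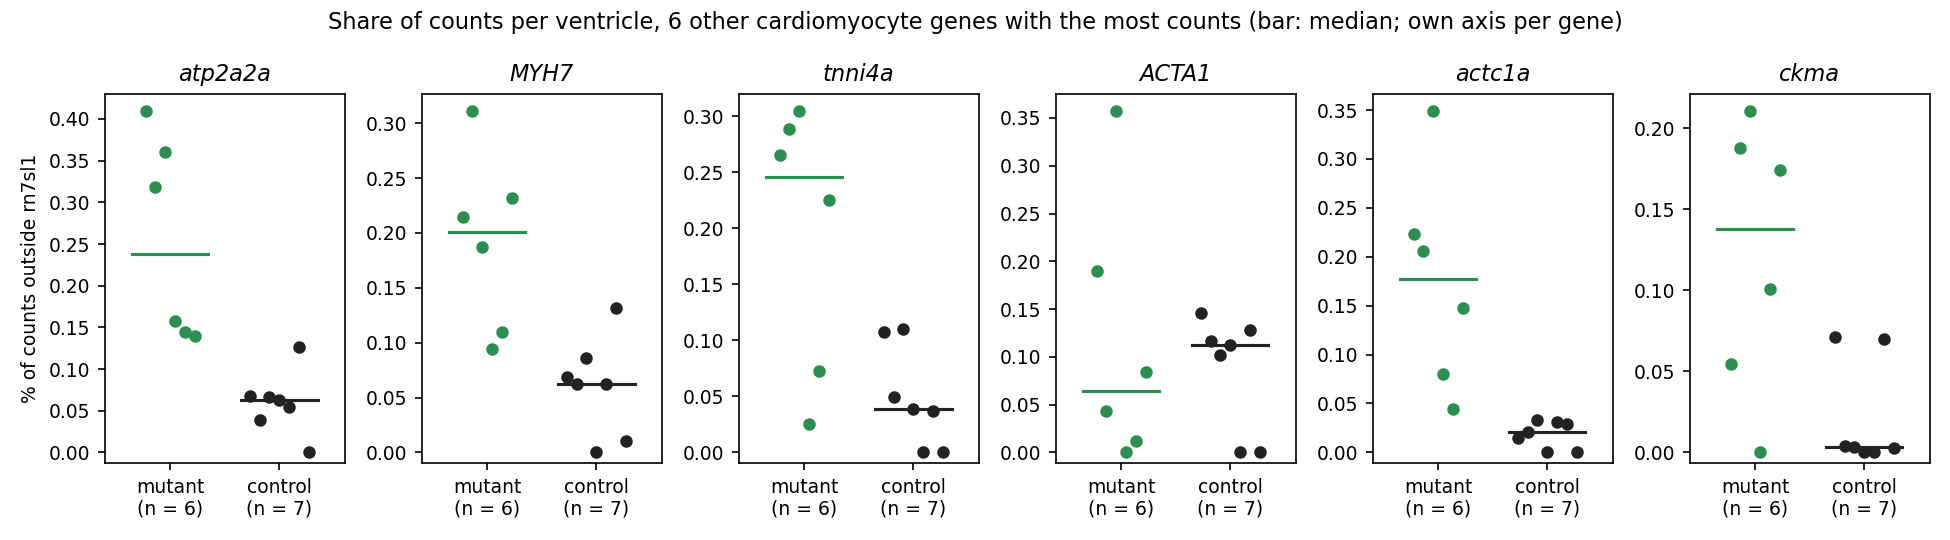
Share of the counts outside rn7sl1 (vertical axis, percent, with its own scale for each gene) for the 6 other sarcomere and cardiomyocyte genes with the most counts; each point is 1 ventricle, mutants (n = 6) in green left of controls (n = 7) in black, and the bar is the median. The groups do not overlap for atp2a2a and actc1a, and overlap for MYH7, tnni4a, ACTA1 and ckma.

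The genes whose shares followed the summed share of the 5 sarcomere genes most closely were found by Spearman's rho over the 13 samples, among 2371 named genes counted in 7 or more samples. They were a signal recognition particle RNA listed as Metazoa_SRP (ENSDARG00000105097, rho 0.87), tnni4a (0.86), RACK1, a protein of the small ribosomal subunit (0.84), MT-CO2, a mitochondrial subunit of cytochrome c oxidase (0.84), and MYH7 (0.82), which was tied with rmrp. All these values share the libraries and the denominator of the sarcomere genes.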

How the data were processed

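Ribosome-depleted, directional RNA libraries from 6 mutant and 7 control ventricles were analysed. The depletion kit was made for human, mouse and rat RNA. Reads were trimmed by the authors, aligned with BWA 0.7.17 to GRCz11 and assigned with featureCounts 1.5.0 to Ensembl genes in a strand-aware way, with a limit on mapping quality. The deposited table holds whole-number counts for 32520 genes, without normalization or a filter; no 2 columns were identical, and groups and replicate numbers come from the sample titles. The table of names matched 29201 identifiers.

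Genes that averaged 10 or more counts were tested by quasi-likelihood in edgeR (version 4.0.16; R 4.3.3) with TMM scaling, a prior count of 0.125 and Benjamini-Hochberg adjustment; SE is the absolute log2 fold change over the square root of F, and its 95% interval uses the normal distribution. Shares of the counts outside ENSDARG00000087732 were compared by exact two-sided permutation, with a pseudocount of 10 CPM. Wilson intervals are at 95%, and intervals and the floor of 3 counts cover counting error only. The tests were run first on simulated counts with large fold changes. The spread between samples was set by hand there and not taken from these data, so the runs do not measure the power of the tests here.

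Alternatives were scaling by TMMwsp, RLE or the upper quartile, or none; fits without ENSDARG00000087732, or without it and ENSDARG00000090170 (RAB11FIP4); a filter on detection in 7 or more samples, or no filter; edgeR's likelihood ratio test, DESeq2 1.42.0 and voom with quality weights (limma 3.58.1); a replicate block; a pseudocount of 1 CPM, no logarithm and other denominators for the shares; and leaving out each sample. A denominator without every gene over 10% of the remaining counts was added after seeing the data. The 5 genes and the lists were chosen with earlier results of these data known. Named besides them are the 6 other sarcomere or cardiomyocyte genes with the most counts, the 5 most alike, genes over 10% of a sample's remaining counts, vegfc, vegfd and top markers. List genes were matched by zebrafish symbol or, where the table gives only an upper-case ortholog symbol, by that. Sequences are not printed and gene lengths were not used here. The samples of mutants were not split by regenerative outcome.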

Additional observations from a re-analysis of the deposited data

Results flagged for a closer look

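Samples far from the rest of their group were looked for in the shares of the 5 sarcomere genes, the 6 other named genes and the ttn.2 part of the titin counts. A sample was marked when its gap to the nearest other sample was a larger part of the group's range than Dixon's 95% limit allows. Of 24 sets of samples, 6 were marked. Chance alone marks about 1 in 20, or 1.2 sets, only where values are independent and normally distributed. The sets here share libraries, and vmhc and tnnt2a had no counts in most samples, so a lone high value is easily marked. The 6 marks therefore cannot be read as an excess over chance. In 5 of the 6 marked sets, 1 sample had a high share of myl7, vmhc or tnnt2a.

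Mutant 1 stood apart for myl7, at 0.199% of the counts outside rn7sl1, with the next mutant at 0.0664%. It also stood apart for tnnt2a, at 0.0160%, with the next mutant at 0.00365%. For vmhc, mutant 5 was far above the other mutants (0.0278%, next 0.00798%), and control 7 was far above the other controls (0.0102%, next 0.000771%). Control 5 was the high control for tnnt2a (0.0198%, next 0.00528%). Mutant 4 stood apart in the balance of the titins, with 74.9% of its titin counts on ttn.2 and the next mutant at 43.4%.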

How the results depend on the processing

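No setting brought any of the 5 genes past an adjusted p under 0.05. The log2 fold changes of ttn.1, ttn.2 and vmhc stayed above 0 in all alternatives that gave a value. They were 0.27 to 3.83 for ttn.1 (1.43 to 2.11 over samples left out), 0.53 to 3.28 for ttn.2 (1.61 to 2.00) and 1.05 to 3.04 for vmhc (1.89 to 5.87). The values over samples left out lack vmhc without mutant 5, which held 60.6% of its counts. They also lack tnnt2a without control 5, which held 46.7% of its counts. For myl7 the sign turned under upper-quartile scaling (-0.56), unscaled library sizes (-0.63) and voom (-1.28), and over samples left out (-0.053 to 1.28). For tnnt2a it turned under upper-quartile scaling (0.42) and voom (0.25). The difference of shares turned for myl7 without the logarithm (0.0299 percentage points) and over samples left out (-1.05 to 0.48). For tnnt2a it turned without the logarithm (-0.000243 percentage points), with all counts in the denominator (-0.19) and over samples left out (-0.48 to 0.37). The cause was not tested. The median fold change of all genes, -0.30 with TMM, was -0.51 with RLE, 0.39 with upper-quartile scaling, -0.36 with TMMwsp and -1.51 unscaled. Relative to that median, ttn.1 lay between 1.39 and 3.44, ttn.2 between 1.45 and 2.89, and vmhc between 1.98 and 3.75 higher over the settings that kept all 13 samples, while myl7 (-0.95 to 1.59) and tnnt2a (-0.95 to 0.73) lay on both sides. The share difference was 1.69 for ttn.1 (exact permutation p = 0.0548) and 1.76 for ttn.2 (exact permutation p = 0.00175) outside both rn7sl1 and RAB11FIP4, and 1.71 and 1.78 outside every gene over 10%.

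Over all genes, the 6 calls (1 higher, 5 lower in mutants) became 87 with upper-quartile scaling (84 higher, 3 lower), 14 unscaled (0 higher), 2 without a filter, 1 with the likelihood ratio test, 142 with DESeq2 (33 higher, 109 lower) and 1 with the replicate block, and 2 to 7 with a sample left out. Of the sarcomere genes, 0 were called by edgeR in any setting, and DESeq2 called 1, a row listed as MYL2 (ENSDARG00000104722), lower in mutants. That row had counts only in control 1 (67) and control 3 (279), and its exact permutation p for the shares was 0.462. The other row listed as MYL2 (ENSDARG00000053424) had 52 counts, all in mutant 6. With the block, the log2 fold change was 1.64 for ttn.1, 1.70 for ttn.2, 0.29 for myl7, 3.04 for vmhc and -1.39 for tnnt2a. Samples with the same number come from different animals and did not deviate together (correlations of -0.02 to 0.08 over 5 numbers), so the numbers do not pair them. A filter on a count in at least 7 samples left out vmhc and tnnt2a, and vmhc without mutant 5 and tnnt2a without control 5 fell under the count minimum.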

Other observations

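Some sarcomere genes of low counts had more counts in one group than in the other, and the genes named here were chosen after their values were seen. The actin gene actc1b, a close relative of actc1a, had 1, 15, 0, 0, 4 and 1 counts in mutants 1 to 6, against 74, 205, 0, 105, 3, 47 and 132 counts in controls 1 and 3 to 8. Its share had a median of 0.000195% in mutants and 0.0141% in controls, whereas that of actc1a was 0.177% in mutants and 0.0209% in controls.

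XIRP2 (ENSDARG00000091090), an actin-binding protein of intercalated discs, had 0, 35, 0, 0, 3 and 1 counts in mutants 1 to 6, against 71, 250, 7, 0, 31, 37 and 135 counts in controls 1 and 3 to 8. The myosin heavy chain gene myh7ba had 28, 292, 0, 51, 202 and 260 counts in mutants 1 to 6, against 0, 21, 0, 0, 0, 67 and 0 counts in controls 1 and 3 to 8. Its relative myh7bb went the other way. That gene had 0, 0, 0, 0, 11 and 4 counts in mutants 1 to 6, against 119, 1, 0, 1, 1, 30 and 50 counts in controls 1 and 3 to 8. The adjusted p in edgeR was 0.296 for actc1b, 0.536 for XIRP2, 0.467 for myh7ba and 0.650 for myh7bb. Rows listed as MYL2 (ENSDARG00000104722) and CRYAB (ENSDARG00000042621) had 0 counts in all 6 mutants and counts in 2 of 7 controls each. A second row under each name went the other way. The second MYL2 row (ENSDARG00000053424) had 52 counts, all in mutant 6. The second CRYAB row (ENSDARG00000101380) had 35 counts in mutant 2, 2 in mutant 6 and 1 in control 1.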
